A study of Mus musculus with 144 samples.

Results

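The data describe what 120 h of monolayer culture did to the RNA of primary mouse hepatocytes that received the vehicle only. The comparison took every DMSO library harvested 120 h after the medium change and every DMSO library harvested at 2 h, which gave 16 of the 72 vehicle libraries of the series, 8 at each time. As many libraries received TCDD and enter only a check of the labels. At each time 4 libraries were labelled WT (strain C57BL/6NCrl) and 4 were labelled PkmΔDRE, a line in which a dioxin response element (the GCGTG core that the aryl hydrocarbon receptor, AHR, binds) was deleted at *Pkm* by CRISPR and the allele was backcrossed. The mice were males aged 28 days. Cells of every group were plated on type I collagen with serum, left to attach for 3 h, and then held in serum-free Williams E medium with insulin, transferrin and selenium (ITS), ascorbic acid, Glutamax, antibiotics, 100 nM dexamethasone and DMSO. No freshly isolated liver and no culture between layers of matrix was among the groups, so the 2 h libraries are themselves plated cells. The labels do not say which libraries came from the same mouse or plate, so p-values measure only the spread between these libraries, which may be technical. The labels and the protocol also differ on the plate format.

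A hepatocyte in the liver is a polarized, non-dividing cell that secretes most plasma proteins, makes bile acids and urea, and oxidizes drugs, and a small network of transcription factors (HNF4A, C/EBPα, the FOXA proteins) keeps these genes on. On flat, stiff plastic the cell attaches, spreads and builds stress fibres, and the adult program wanes, a process known as dedifferentiation. Genes of the cytoskeleton, of the matrix, of the YAP and TEAD pathway and of fetal liver or bile duct are known to come up in such cultures.

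Gene counts ran from 15636067 to 25068992 per library. Libraries of the same time resembled each other, with Spearman correlations over 12203 genes of 0.938 to 0.980 among the 2 h libraries and 0.921 to 0.990 among the 120 h libraries, against 0.591 to 0.776 between times. The composition of the libraries also moved. The 10 most abundant genes held 23.9% ± 1.2 of gene counts at 2 h and 11.2% ± 1.4 at 120 h (SD, n = 8 each), mitochondrial genes 4.56% ± 0.53 and 2.15% ± 0.53, and pairs on no gene 4.72% ± 0.58 and 9.38% ± 1.34 of the uniquely mapped pairs. Unmapped pairs made up 10.6% ± 2.3 and 4.58% ± 0.99, and between 14875 and 17878 genes had a count at 2 h and between 18534 and 23505 at 120 h. Each of these 5 measures differed in a two-sided exact permutation test (p = 0.0001554, the smallest that 8 against 8 allows, and the same after adjustment over the 5).

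That shift in composition set the scale of every fold change. TMM, the scaling used here, takes the bulk of genes as the reference, and its factors ran from 0.543 to 0.742 at 2 h and from 1.44 to 1.74 at 120 h. Against scaling by total gene counts, TMM moved the log2 fold changes down by 1.30, so a gene that fell by less than that on the TMM scale rose on the other. Each group below is therefore given on both scales. Levels are given as CPM, counts scaled to library size and TMM factor, which are not corrected for gene length, and fold changes are at 120 h over 2 h.

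Of 15109 genes tested, 10002 were differentially expressed (DEGs), meaning that the adjusted p was under 0.05 and the level changed 1.5-fold or more. Among them 5757 rose (38.1% of the genes tested) and 4245 fell (28.1%). At least 4-fold, 2926 rose (19.4%) and 1672 fell (11.1%). Scaled by total counts, 10541 rose (69.8%) and 1649 fell (10.9%), which moved the risers from 57.6% to 86.5% of the DEGs. All 1649 genes that fell on that scale also fell with TMM, while 356 that fell with TMM rose on it. The median log2 fold change over all genes tested was 0.21 with TMM and 1.52 with total counts. The counts of every list below are to be read beside the shares of risers and fallers given here.

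**Figure D1:**
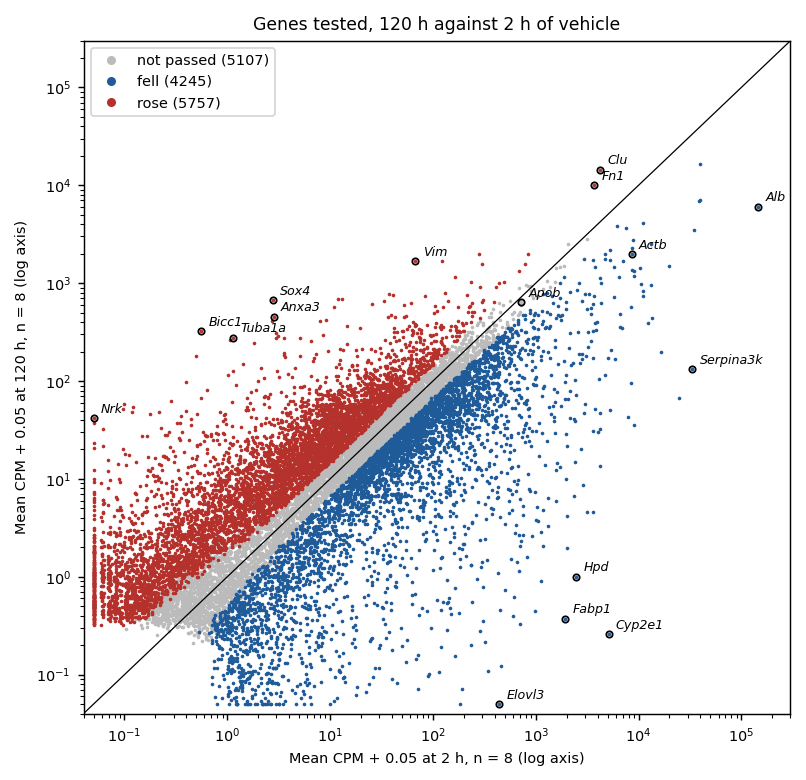
Mean CPM at 2 h (x axis) and at 120 h (y axis) of the 15109 genes tested, 8 libraries per time, on log axes after adding 0.05; red genes rose, blue genes fell, grey genes did not pass. Fallers reach from the most abundant transcripts (*Alb*, *Serpina3k*) to genes near the lower edge at 120 h (*Cyp2e1*, *Fabp1*, *Elovl3*), and *Apob* lies by the diagonal on this TMM scale (it rose with total counts).

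The genes of the differentiated hepatocyte fell, by very different amounts. *Alb*, which encodes serum albumin, ran from 100900 to 191000 CPM at 2 h (median 135200) and from 1798 to 12050 CPM at 120 h (median 5611). The groups did not overlap, and the log2 fold change was -4.57 (SE 0.32, adjusted p = 3.31e-10). As a share of gene counts, with no scaling, *Alb* went from 6.41% to 10.1% (median 8.92%) to between 0.270% and 1.59% (median 0.829%), so albumin remained an abundant transcript in every 120 h library. *Cyp2e1*, a cytochrome P450 of the pericentral lobule that oxidizes ethanol, instead went almost to nothing. Its level was 3406 to 7122 CPM at 2 h (median 5177) and 0 to 0.710 CPM at 120 h (median 0.0869), a log2 fold change of -14.59 (SE 0.65, adjusted p = 1.28e-12). The list also held *Apob*, the structural protein of very low density lipoprotein. It was at 344.8 to 1199 CPM at 2 h (median 655.7) and 217.7 to 1175 CPM at 120 h (median 661.8), with overlapping groups and a log2 fold change of -0.17 (SE 0.32, adjusted p = 0.638) that turned to 1.10 with total counts and to -2.51 in a fit that took the no-gene share as a covariate (adjusted p = 0.004997). Of the 12 hepatocyte markers 11 fell and *Apob* did not pass (median -4.62), and with total counts 10 fell and 1 rose (median -3.31), so the labelled cell type was fully marked at 2 h and at 120 h by some of its defining transcripts and not by others.

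**Figure D2:**
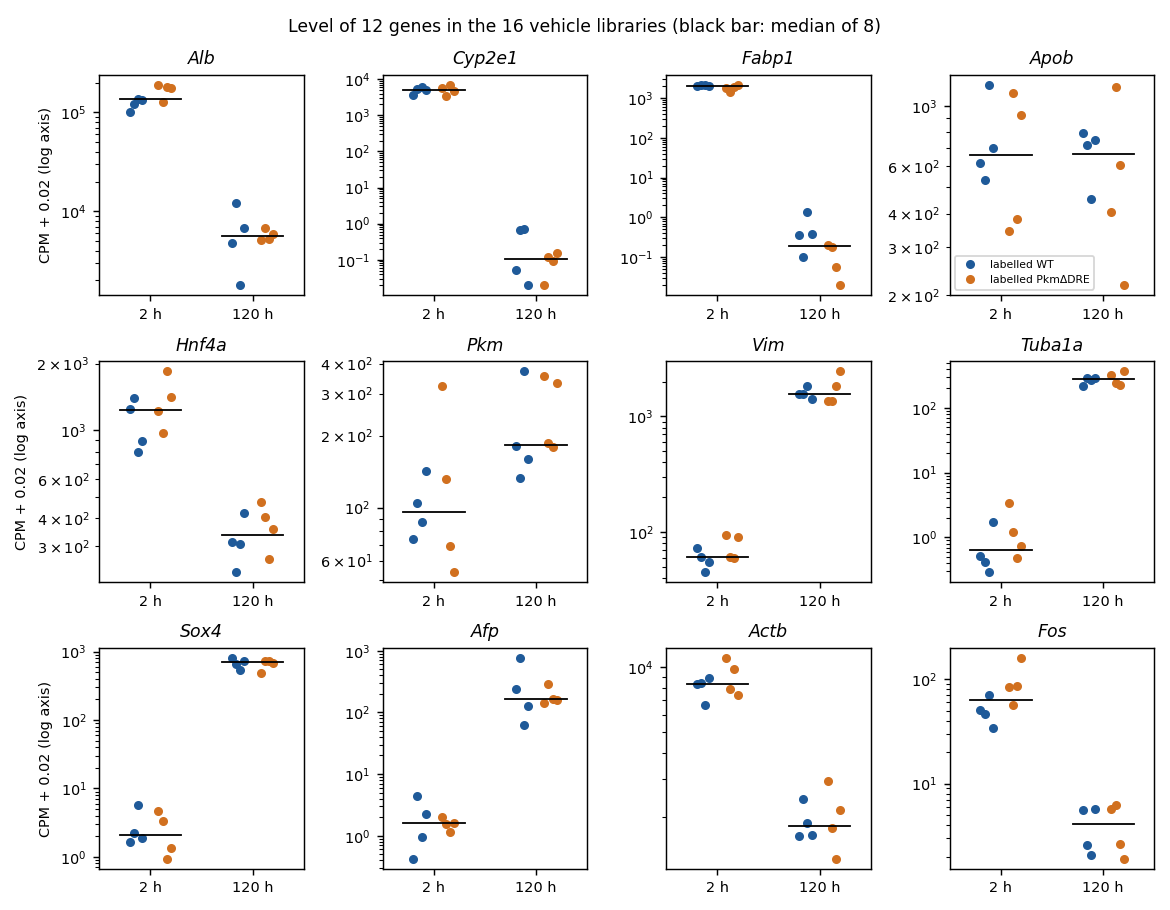
CPM plus 0.02 (log axis) of 12 genes in each of the 16 vehicle libraries at 2 h and 120 h, blue for libraries labelled WT and orange for those labelled PkmΔDRE, with a black bar at the median of 8. *Cyp2e1* and *Fabp1* drop below 2 CPM in every 120 h library, and *Vim*, *Tuba1a*, *Sox4* and *Afp* are higher in all 8 libraries at 120 h. *Apob* and *Pkm* overlap between the times on this TMM scale (*Pkm* does not with total counts).

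Among 32 secreted plasma proteins, 31 fell and none rose, with a median log2 fold change of -4.48 (with total counts 30 fell and 1, *Apob*, rose, median -3.18). Their summed level was 299300 to 470600 CPM at 2 h and 17790 to 53630 CPM at 120 h. *Apoa2*, a protein of high density lipoprotein, was at 6694 to 11870 CPM at 2 h (median 8276) and at 12.2 to 142.7 CPM at 120 h (median 20.1). *Ttr*, the thyroid hormone carrier, kept more of its level, with medians of 10530 and 803.3 CPM and a log2 fold change of -3.73 (SE 0.26). *Gc*, the vitamin D carrier, changed least among those that fell, from a median of 9030 to 2797 CPM (log2 fold change -1.68, SE 0.16), and did not pass with total counts (-0.37). Several of the largest falls in absolute level were in secreted proteins outside the list, and *Serpina3k*, a serine protease inhibitor, went from a median of 34340 to 44.2 CPM. In 1 library labelled WT at 120 h (replicate 2), *Serpina3k* stood at 762.0 CPM, and its log2 fold change of -8.45 became -9.61 without that library. *Serpina1e* and *Serpina1b*, which encode α1-antitrypsins, and *Mup3*, a major urinary protein, fell as well (-8.53, -3.79 and -6.38), but each belongs to a cluster of near-identical genes among which reads can be split, so their separate values are uncertain.

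Complement and coagulation genes followed, with 24 of 25 lower, none higher and a median of -4.06 (23 lower and 2 higher with total counts, median -2.83). *C3*, the central complement component, ran from 14510 to 25930 CPM at 2 h and from 539.0 to 2936 CPM at 120 h (log2 fold change -3.70, SE 0.30). *C8b*, a subunit of the membrane attack complex, went from a median of 717.2 to 1.39 CPM, with a log2 fold change of -8.49 that was -9.23 without the library labelled WT, 120 h, replicate 2. The smallest call was *Masp1*, a protease of the lectin pathway, at -0.63 (SE 0.10). It missed the fold threshold without that same library (-0.54), without replicate 4 of that group (-0.58) or without the library labelled PkmΔDRE, 120 h, replicate 3 (-0.58), and rose with total counts (0.68). It also missed it with RLE, an alternative scaling (-0.55), with DESeq2 (-0.55), with no filter on low counts (-0.56) and within the label PkmΔDRE (-0.49).

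Drug metabolism enzymes were lower in 33 of 36 cases and higher in none (30 lower and 3 higher with total counts; medians -5.32 and -4.02). *Cyp3a11*, the main steroid and drug oxidizing P450, fell from a median of 1383 to 1.05 CPM (log2 fold change -10.10, SE 0.46). *Cyp2f2*, a periportal P450, fell from 2951 to 5.33 CPM (-8.56, SE 0.53). *Cyp1a2*, which depends on AHR, fell less, from 619.4 to 78.97 CPM (-3.44, SE 0.36), and *Por*, the reductase that supplies electrons to these P450s, from 2316 to 135.6 CPM (-3.92, SE 0.21). *Cyp2a5*, *Gstm1* and *Sult1a1* were the 3 that did not pass. *Cyp2a5*, the coumarin hydroxylase, was at 144.8 to 394.9 CPM at 2 h and 67.1 to 541.3 CPM at 120 h (log2 fold change -0.08, SE 0.31, and 1.20 with total counts). *Gstm1*, a glutathione transferase, was at 1282 to 2632 CPM and 1204 to 3440 CPM (0.30, SE 0.22, and 1.61 with total counts).

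Bile acid synthesis and uptake fell, while exporters differed. Of 21 genes tested 16 fell and 2 rose (15 and 4 with total counts; medians -4.03 and -2.73), and 1, *Hsd3b7*, was too low to be tested. *Slc10a1*, which takes up bile acids from blood, was at 342.2 to 645.5 CPM at 2 h and 0.319 to 1.21 CPM at 120 h (-9.53, SE 0.29). *Abcb11*, the export pump of the canalicular membrane, went from a median of 241.2 to 1.17 CPM (-7.62, SE 0.52), and *Cyp8b1*, the sterol hydroxylase of cholic acid synthesis, from 127.5 to 0.126 CPM (-9.62, SE 0.34). *Abcc2*, which exports conjugates into bile, did not pass (0.54, SE 0.22, adjusted p = 0.0344, short of the fold threshold), but it passed in 6 of the 16 fits that each left out 1 library (0.59 to 0.68) and with total counts (1.83). It also passed with RLE scaling (0.63), with DESeq2 (0.63) and with no filter on low counts (0.62). With the no-gene share as a covariate it was at -1.06 and did not pass. In contrast *Abcc4*, an exporter of the basolateral membrane, rose in every library, from 2.81 to 10.8 CPM at 2 h (median 6.42) to 153.4 to 300.8 CPM at 120 h (median 282.9), with a log2 fold change of 5.35 (SE 0.25, adjusted p = 1.84e-12).

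Of 30 amino acid and urea enzymes 28 fell, each by at least 4-fold, and 1 rose (median -5.83, and with total counts 28 lower, 2 higher and a median of -4.50). *Hpd*, an enzyme of tyrosine breakdown, fell from 1754 to 3490 CPM at 2 h to 0.217 to 1.83 CPM at 120 h (log2 fold change -11.32, SE 0.46, adjusted p = 3.58e-13). The urea cycle fell throughout, from a median of 5204 to 202.9 CPM for *Cps1*, 343.6 to 0.939 CPM for *Otc*, 8347 to 91.3 CPM for *Ass1* and 1773 to 11.8 CPM for *Arg1*. *Tat*, a tyrosine aminotransferase that glucocorticoids induce, remained at 20.8 to 310.0 CPM (-3.99, SE 0.42) in medium that held dexamethasone. *Gls2*, the liver glutaminase, fell from a median of 860.4 to 2.28 CPM (-8.48, SE 0.28). *Glul*, the pericentral glutamine synthetase, fell from 1002 to 132.7 CPM (-2.81, SE 0.18).

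Markers of both ends of the liver lobule fell, the periportal ones throughout and the pericentral ones in part. All 12 periportal genes fell by at least 4-fold (median -7.10, and -5.79 with total counts), and of 10 pericentral genes tested 7 fell, 1 rose (*Aldh1a1*, a retinal dehydrogenase, 1.27) and 2 did not pass (median -3.98, and -2.65 with total counts). *Lgr5* and *Rhbg* of the pericentral list were too low to be tested.

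In sugar metabolism the liver forms fell and the widely expressed forms moved in both directions. All 14 liver type enzymes fell on either scale (medians -4.17 and -2.89). *Pck1*, which starts gluconeogenesis, went from a median of 1033 to 1.18 CPM (-8.63, SE 0.61), *Fbp1* from 1950 to 5.46 CPM (-7.69, SE 0.53), and *G6pc1*, whose product releases glucose, from 184.8 to 2.50 CPM (-5.84, SE 0.25). Of 22 widely expressed enzymes 6 rose and 9 fell with TMM (median -0.35), and 14 rose and 4 fell with total counts (median 0.96). Over all genes tested the shares were 38.1% and 28.1% with TMM, and 69.8% and 10.9% with total counts. The list was not tested as a set. *Pygb*, the brain form of glycogen phosphorylase, rose from 3.92 to 37.0 CPM (3.36, SE 0.23) while the liver form *Pygl* fell from 715.1 to 61.9 CPM (-3.38, SE 0.17). *Hk2*, a hexokinase of muscle and tumours, rose from 5.03 to 12.8 CPM with overlapping groups (1.35, SE 0.29). Lactate dehydrogenase *Ldha* fell from 2517 to 291.5 CPM (-3.01, SE 0.19), and the glucose transporter *Slc2a1* from 521.7 to 42.7 CPM (-3.51, SE 0.30). *Aldoa* did not pass (-0.47, and 0.84 with total counts).

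*Pkm*, the gene that carries the deletion and encodes the pyruvate kinase of most tissues, was at 73.7, 104.3, 87.2 and 142.8 CPM in the 2 h libraries labelled WT, and at 322.2, 131.3, 69.2 and 53.8 CPM in those labelled PkmΔDRE. At 120 h it was at 180.1, 133.1, 371.1 and 159.3 CPM (WT) and 353.4, 186.7, 178.9 and 332.9 CPM (PkmΔDRE). On this TMM scale the times overlapped, since the 2 h libraries at 142.8 and 322.2 CPM lay above the lowest at 120 h. *Pkm* rose over all 16 libraries (log2 fold change 0.97, SE 0.32, adjusted p = 0.0105). Within the labels it rose with TMM by 1.08 (WT) and 0.86 (PkmΔDRE, which did not pass, adjusted p = 0.147). Scaled by total counts the times did not overlap. The 2 h libraries were then at 46.75 to 88.33 CPM (WT) and 30.82 to 160.8 CPM (PkmΔDRE). Those of 120 h were at 175.3 to 558.2 CPM (WT) and 284.9 to 472.3 CPM (PkmΔDRE). The deletion removes a binding site and not the transcript, so this level does not check the labels. The response of *Pkm* to TCDD, examined for this purpose alone and scaled by total counts, went against them, since the gene was higher with TCDD under the label of the line that lacks the element. In libraries labelled PkmΔDRE it was at 37.4 to 67.3 CPM with vehicle and 112.2 to 146.4 CPM with TCDD at 8 h, and at 88.8 to 264.0 CPM and 310.1 to 476.4 CPM at 24 h, log2 differences of 1.31 and 1.44 (n = 4 each). The groups did not overlap at 8, 12, 24 and 48 h, each with a two-sided exact permutation p = 0.02857, the smallest that 4 against 4 allows (0.08571 after adjustment over 18 comparisons). In libraries labelled WT the groups overlapped at those 4 times, with differences of -0.35, 0.078, 0.19 and 0.31. Under the label WT they did not overlap at 4 h and 96 h, where *Pkm* was lower with TCDD (-0.50 and -0.71). The same permutation test gave p = 0.02857 at each of these times too (0.08571 after adjustment). The labels are therefore used as names of libraries only, and values within a label are not read as values of a genotype. *Pklr*, the liver and erythrocyte pyruvate kinase, fell from a median of 217.4 to 55.2 CPM (-1.91, SE 0.26), with overlapping groups.

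Fatty acid oxidation genes were lower in 24 of 25 cases (median -2.43), of which 15 remained lower with total counts and 1, *Cpt1a*, rose (median -1.12). *Fabp1*, the liver fatty acid binding protein, fell from 1385 to 2182 CPM at 2 h to 0 to 1.39 CPM at 120 h, with a log2 fold change of -12.60 that was -13.30 without the library labelled WT, 120 h, replicate 3. *Cpt1a*, the gate of mitochondrial oxidation, overlapped between times, at 190.1 to 474.4 and 188.2 to 294.4 CPM (-0.49, SE 0.17, short of the fold threshold, and 0.84 with total counts). Lipogenesis and cholesterol synthesis genes fell in 16 of 21 cases and rose in 1 (9 and 5 with total counts; medians -1.60 and -0.28). *Scd1*, the stearoyl-CoA desaturase, showed how far single cultures could differ, with 7 of the 120 h libraries at 39.5 to 353.9 CPM and the library labelled WT, replicate 2, at 4664 CPM. Its log2 fold change was -4.56 with that library and -5.94 without it.

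Genes that growth hormone and male sex drive in the liver included the only 2 that went from a mean of 10 CPM or more to no count. *Elovl3*, a fatty acid elongase of male liver, was at 104.7 to 730.6 CPM at 2 h and had no count in any 120 h library, at least 3982-fold lower against a floor of 3 counts per library. *Hsd3b5*, a male-specific steroid dehydrogenase, was at 111.8 to 240.5 CPM and then likewise at 0 (at least 1654-fold lower). Of the 16 genes of this list 12 fell and 3 rose on either scale (medians -4.35 and -3.06). *Igf1*, the growth factor through which growth hormone acts, fell from a median of 473.1 to 22.6 CPM (-4.13, SE 0.29), and *Igfbp3*, its main carrier in blood, rose from 5.93 to 67.8 CPM (3.70, SE 0.28).

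The other genes with the largest falls at a mean of 10 CPM or more included the methyltransferase *Inmt* (-12.60), the steroid dehydrogenases *Hsd17b6* and *Akr1c6* (-11.24 for the latter), the sulfotransferase *Sult2a8* (-11.27), the carboxylesterases *Ces1f* and *Ces1d* (-11.23 and -10.66), the organic anion transporter *Slc22a7* (-10.86), the fatty acid hydroxylases *Cyp4a14* and *Cyp4a10* (-10.77 for the latter) and *Serpina6*, the cortisol carrier. Without the library labelled WT, 120 h, replicate 2, *Hsd17b6* moved from -12.33 to -13.13 and *Serpina6* from -10.57 to -11.22, and without replicate 3 of that group *Cyp4a14* moved from -12.69 to -13.44. *Akr1c6*, *Ces1f*, *Ces1d* and the *Cyp4a* genes belong to families of close copies.

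The transcription factors of the liver did not all fall. With TMM, 13 of 22 fell, 6 rose and 3 did not pass (median -1.30), and with total counts 6 fell and 7 rose (median 0.01). *Hnf4a*, the nuclear receptor at the centre of the hepatocyte network, was at 798.4 to 1844 CPM at 2 h (median 1237) and 228.9 to 473.3 CPM at 120 h (median 335.3). The log2 fold change was -1.81 (SE 0.18, adjusted p = 4.65e-08), and it did not pass with total counts (-0.48). *Cebpa* fell from a median of 504.9 to 96.95 CPM (-2.33, SE 0.19), *Ppara*, the receptor that drives fatty acid oxidation, from 39.3 to 8.21 CPM (-2.14, SE 0.25), and *Creb3l3*, a hepatocyte factor of the endoplasmic reticulum, from 579.5 to 23.3 CPM (-4.43, SE 0.25). *Nr1i3*, the xenobiotic receptor CAR, was at 3.02 to 8.79 CPM at 2 h and left 2 counts in all 120 h libraries together, 578.7-fold lower (95% counting interval 160.2 to 4778). The FOXA factors diverged, and *Foxa3* fell from a median of 90.1 to 8.50 CPM (-3.11, SE 0.30) while *Foxa1* rose from 12.5 to 42.2 CPM (1.67, SE 0.24) and *Foxa2* from 23.4 to 52.5 CPM (1.17, SE 0.17). *Onecut2* (3.48, SE 0.40) and *Prox1* (2.49, SE 0.22), factors of the developing liver, rose as well, as did *Onecut1* and *Nr5a2*.

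Short stretches before the gene starts are shown for 3 genes that fell and 3 that rose, chosen after their values were seen, because the factors above are known to bind such sequence. Each is the 250 bases before the start of transcription in RefSeq (GRCm38.p6, whereas the counts follow GRCm39), written on the strand of the gene. Capitals mark matches on either strand to TTGCNNAA (C/EBP), CATTCC (TEAD) and TATAAA, the box that the basal factor TBP binds, and CAAAGTCCA (HNF4) and TGANTCA (AP-1) were searched as well and have no match in these 6. The first 3 are *Alb* (chr5:90460620-90460869, plus strand), *Fabp1* (chr6:71199629-71199878, plus) and *Cyp2e1* (chr7:140763569-140763818, plus), which fell.
Alb: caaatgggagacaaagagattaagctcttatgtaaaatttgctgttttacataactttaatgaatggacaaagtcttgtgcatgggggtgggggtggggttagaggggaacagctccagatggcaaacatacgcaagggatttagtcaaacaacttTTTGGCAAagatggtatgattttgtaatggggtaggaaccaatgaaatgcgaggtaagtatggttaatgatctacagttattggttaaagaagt
Fabp1: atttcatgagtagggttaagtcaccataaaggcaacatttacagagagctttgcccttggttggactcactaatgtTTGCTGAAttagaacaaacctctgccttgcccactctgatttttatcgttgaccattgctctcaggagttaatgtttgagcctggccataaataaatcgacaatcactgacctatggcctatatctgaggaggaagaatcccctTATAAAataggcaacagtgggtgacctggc
Cyp2e1: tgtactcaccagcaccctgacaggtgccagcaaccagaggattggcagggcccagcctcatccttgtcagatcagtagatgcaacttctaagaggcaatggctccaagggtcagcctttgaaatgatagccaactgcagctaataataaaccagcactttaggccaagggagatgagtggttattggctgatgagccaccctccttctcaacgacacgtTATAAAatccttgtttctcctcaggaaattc
The other 3 are *Afp* (chr5:90490464-90490713, plus), *Ankrd1* (chr19:36119845-36120094, minus) and *Vim* (chr2:13574061-13574310, plus), which rose.
Afp: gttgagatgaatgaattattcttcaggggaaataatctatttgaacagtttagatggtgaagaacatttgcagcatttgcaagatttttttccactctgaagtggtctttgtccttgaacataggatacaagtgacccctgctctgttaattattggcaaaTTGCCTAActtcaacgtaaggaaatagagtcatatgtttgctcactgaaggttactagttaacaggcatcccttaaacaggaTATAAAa
Ankrd1: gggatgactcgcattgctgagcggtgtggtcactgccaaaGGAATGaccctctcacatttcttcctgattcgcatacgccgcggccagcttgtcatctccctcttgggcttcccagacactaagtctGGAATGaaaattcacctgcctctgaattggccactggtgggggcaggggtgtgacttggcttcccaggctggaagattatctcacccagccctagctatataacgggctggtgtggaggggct
Vim: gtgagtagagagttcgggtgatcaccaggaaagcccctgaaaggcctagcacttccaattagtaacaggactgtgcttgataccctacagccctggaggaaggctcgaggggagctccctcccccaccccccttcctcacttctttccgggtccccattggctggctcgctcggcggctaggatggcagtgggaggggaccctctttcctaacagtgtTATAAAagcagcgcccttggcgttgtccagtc

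The same TTGCNNAA letters thus stand before *Alb* and *Fabp1*, which fell, and before *Afp*, which rose, and a match is a description of the letters and not of binding. Over all 32851 upstream windows of this length, TTGCNNAA was held by 9.56%, CATTCC by 12.6%, TATAAA by 12.4%, TGANTCA by 6.75% and CAAAGTCCA by 0.384%. Of the 1490 windows of genes that fell at least 4-fold, TTGCNNAA was in 11.9%, and of the 2594 windows of genes that rose at least 4-fold in 7.36%, against 7.95% of the 14046 windows of all genes tested. CATTCC was in 13.3% of the windows of genes that fell so far, 11.1% of those that rose and 1549 of the 14046 tested. In the same order, TATAAA was in 13.4%, 7.13% and 7.15%, TGANTCA in 8.66%, 4.74% and 4.93%, and CAAAGTCCA in 1.14%, 0.347% and 0.42%. All the motifs searched were thus more frequent before genes that fell, and the excess was not particular to TTGCNNAA. Among 31 windows of secreted plasma protein genes TTGCNNAA was in 35.5%, and among 18 windows of the YAP list CATTCC was in 55.6%. Among 32 windows of cytoskeletal genes CATTCC was in 28.1%, TATAAA in 15.6%, TTGCNNAA and TGANTCA in 9.38% each, and CAAAGTCCA in 0.0%. The YAP list was itself drawn from known YAP and TEAD genes.

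Cytoskeletal genes moved in both directions. Of 35 genes tested 19 rose and 11 fell (25 and 6 with total counts; medians 1.22 and 2.52), and *Tagln* was too low to be tested. Of all genes tested 38.1% rose and 28.1% fell, and with total counts 69.8% and 10.9%. The share of cytoskeletal risers with total counts was thus near that of all genes, and so no result about the list on that scale. *Vim*, the intermediate filament of mesenchymal cells, was at 45.1 to 94.7 CPM at 2 h (median 61.04) and at 1352 to 2449 CPM at 120 h (median 1571), a log2 fold change of 4.65 (SE 0.18, adjusted p = 1.66e-13). *Tuba1a* and *Tubb2b*, tubulins best known from neurons, rose from medians of 0.611 and 0.485 CPM to 279.2 and 184.0 CPM (8.04 and 8.66, SE 0.38 and 0.37), while the tubulins *Tuba1c* and *Tubb6* fell from 494.1 and 610.3 CPM to 89.1 and 62.1 CPM (-2.34 and -3.31). *Flna*, an actin crosslinker, rose from 110.2 to 1515 CPM (3.77, SE 0.18). The actins themselves fell, *Actb* from a median of 8394 to 1821 CPM (-2.11, SE 0.17) and *Actg1* from 3589 to 582.9 CPM (-2.57, SE 0.15), and so did *Krt8* and *Krt18*, the keratins of the adult hepatocyte (-1.92 and -2.07). These 4 also fell with total counts (-0.82, -1.26, -0.63 and -0.78). *Krt19*, a keratin of bile duct cells, went from 0.0916 to 1.83 CPM at 2 h to 21.5 to 62.99 CPM at 120 h (5.52, SE 0.40). *Krt7*, another of them, had a median of 0 at 2 h and 15.6 CPM at 120 h.

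Annexins, S100 proteins and galectins, which bind membranes, calcium and glycans, rose in 10 of 17 cases and fell in 4 (13 and 1 with total counts; medians 1.32 and 2.60), and 3 (*S100a4*, *S100a8* and *S100a9*) were too low to be tested. Among all genes tested 38.1% rose with TMM and 69.8% with total counts. *Anxa3* rose from 0.504 to 5.42 CPM at 2 h to 353.7 to 513.7 CPM at 120 h (7.36, SE 0.31, adjusted p = 5.29e-13), and *Anxa5* from a median of 293.9 to 1915 CPM (2.85, SE 0.15). *S100a6* rose from 2.04 to 277.0 CPM (6.67, SE 0.58) and *Lgals1* from 7.31 to 418.4 CPM (5.71, SE 0.23). *S100a10*, the partner of annexin A2, fell from 1169 to 354.3 CPM (-1.55, SE 0.15) but did not pass with total counts (-0.25).

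Adhesion genes rose in 18 of 29 cases and fell in 8 (22 and 4 with total counts; medians 1.47 and 2.75), where 38.1% of all genes tested rose with TMM and 69.8% with total counts. The 2 classical cadherins moved in opposite directions. *Cdh1*, the epithelial cadherin, was at 602.9 to 799.7 CPM at 2 h and 69.8 to 161.7 CPM at 120 h (-2.56, SE 0.16), and *Cdh2*, the neural cadherin, at 28.9 to 53.6 CPM and 137.5 to 228.7 CPM (2.33, SE 0.14). The gap junction genes of the hepatocyte fell most, *Gjb1* from a median of 1394 to 38.7 CPM (-4.93, SE 0.27) and *Gjb2* from 372.3 to 18.4 CPM (-4.26, SE 0.33). *Cd44*, the hyaluronan receptor, rose from 6.85 to 64.8 CPM (3.21, SE 0.33).

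Matrix and remodelling genes rose in 25 of 36 cases and fell in 5 (31 and 2 with total counts; medians 2.00 and 3.30), with *Col8a1*, *Mmp9* and *Mmp13* too low to be tested. *Fn1*, fibronectin, was already abundant at 2434 to 4747 CPM at 2 h and stood at 7214 to 12720 CPM at 120 h (1.44, SE 0.18). *Spp1*, osteopontin, rose from a median of 10.7 to 657.2 CPM (5.88, SE 0.42), and the collagen crosslinking enzyme *Loxl2* from 3.67 to 181.2 CPM (5.72, SE 0.19). *Lox*, its relative, had a median of 0 at 2 h and 46.95 CPM at 120 h. *Col18a1*, a collagen that hepatocytes make, fell from 1575 to 435.2 CPM (-1.82, SE 0.16), and did not pass with total counts (-0.50). *Col1a1*, the fibrillar collagen of fibroblasts, was at 0 to 0.883 CPM at 2 h and 6.58 to 121.6 CPM at 120 h, and *Acta2*, the actin of smooth muscle and activated stellate cells, at 0 to 0.458 CPM and 8.09 to 91.02 CPM. The library labelled PkmΔDRE, 120 h, replicate 1, was the highest for both.

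Those 2 genes are also markers of stellate cells and fibroblasts. Of 14 such markers tested 7 rose and 2 fell (11 and 1 with total counts). Of all genes tested 38.1% rose and 28.1% fell with TMM, and 69.8% and 10.9% with total counts. The 15 markers together summed to 54.2 to 103.9 CPM at 2 h and 51.4 to 439.0 CPM at 120 h. As a share of gene counts they held 0.00296% to 0.00576% at 2 h and 0.00677% to 0.0587% at 120 h, without overlap. *Lrat*, the enzyme that defines the vitamin A storing stellate cell, was at most 0.366 CPM at 2 h and 1.09 CPM at 120 h, and called higher (2.03, SE 0.74), which it was not without the library labelled PkmΔDRE, 120 h, replicate 1 (1.68, adjusted p = 0.05903). *Reln*, another stellate marker, fell from a median of 13.4 to 4.49 CPM (-1.65, SE 0.23), and did not pass with total counts (-0.35). The part of stellate cells or fibroblasts in the matrix result was not tested. In bulk RNA, fewer cells of a type and less RNA per cell cannot be told apart.

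The YAP list, which holds components of the pathway as well as targets, had more genes that rose than fell. Of 19 genes 15 rose and 2 fell (18 and 0 with total counts; medians 2.01 and 3.30). *Yap1* itself was at 87.9 to 161.8 CPM at 2 h and 80.9 to 108.9 CPM at 120 h, with a log2 fold change of -0.59 (SE 0.12) that sat at the fold threshold, fell short of it in 11 of the 16 fits that each left out 1 library, and was 0.71 with total counts. The change was also short of the threshold with RLE scaling (-0.51), with DESeq2 (-0.51), with no filter on low counts (-0.52) and within the label PkmΔDRE (-0.56). *Tead2*, a DNA-binding partner of YAP, rose from 0 to 0.478 CPM to 35.7 to 72.9 CPM (8.12, SE 0.43). *Ccn2*, a secreted target, rose from a median of 96.9 to 483.2 CPM (2.30, SE 0.19), and *Ankrd1*, whose upstream window holds 2 CATTCC matches, from 0.0797 to 43.03 CPM (7.17, or 7.91 without the library labelled WT, 2 h, replicate 4). The target *Ccn1* went the other way with TMM, from 465.3 to 210.5 CPM (-1.29, SE 0.17), and did not change beyond the threshold with total counts (0.02).

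Genes of progenitor, bile duct and fetal liver cells rose in 12 of 16 tested cases and fell in 2 (median 5.62, and 6.75 with total counts, where 14 rose and none fell). The other 4 members, *Igf2*, *Dlk1* and *Cftr* among them, were too low to be tested. *Sox4*, a factor of bile duct development, was at 0.916 to 5.77 CPM at 2 h and 485.5 to 799.7 CPM at 120 h (7.97, SE 0.35, adjusted p = 1.12e-12). *Cd24a*, a surface glycoprotein of progenitors, rose from a median of 3.08 to 305.2 CPM (6.75, SE 0.30). *Afp*, the albumin of the fetal liver, rose from 0.403 to 4.44 CPM to 62.01 to 754.0 CPM (7.08, SE 0.53), and its neighbour *Alb* fell in the same libraries. *Sox9*, the best known biliary factor, did not pass, with a median of 83.8 CPM at 2 h and 86.6 to 126.9 CPM at 120 h, where the groups overlapped (0.23, SE 0.20, and 1.53 with total counts). *Epcam*, the progenitor surface marker, was low throughout and fell from a median of 2.66 to 0.881 CPM (-1.82, SE 0.53), though not with total counts (-0.47) or within the label WT (-1.90, adjusted p = 0.0645). *Clu*, clusterin, had the highest mean of any gene with a symbol at 120 h, at 2942 to 5743 CPM and then 9589 to 25750 CPM (1.78, SE 0.20).

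These genes overlap with the markers of bile duct cells, of which 7 of 9 tested rose and 1 fell (8 and 0 with total counts). Summed, the 10 bile duct markers were at 3097 to 5850 CPM at 2 h and 10950 to 27330 CPM at 120 h, most of it *Clu*, and *Cftr*, a defining marker, was at most 0.364 CPM. The part of bile duct cells was not tested.

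**Figure D3:**
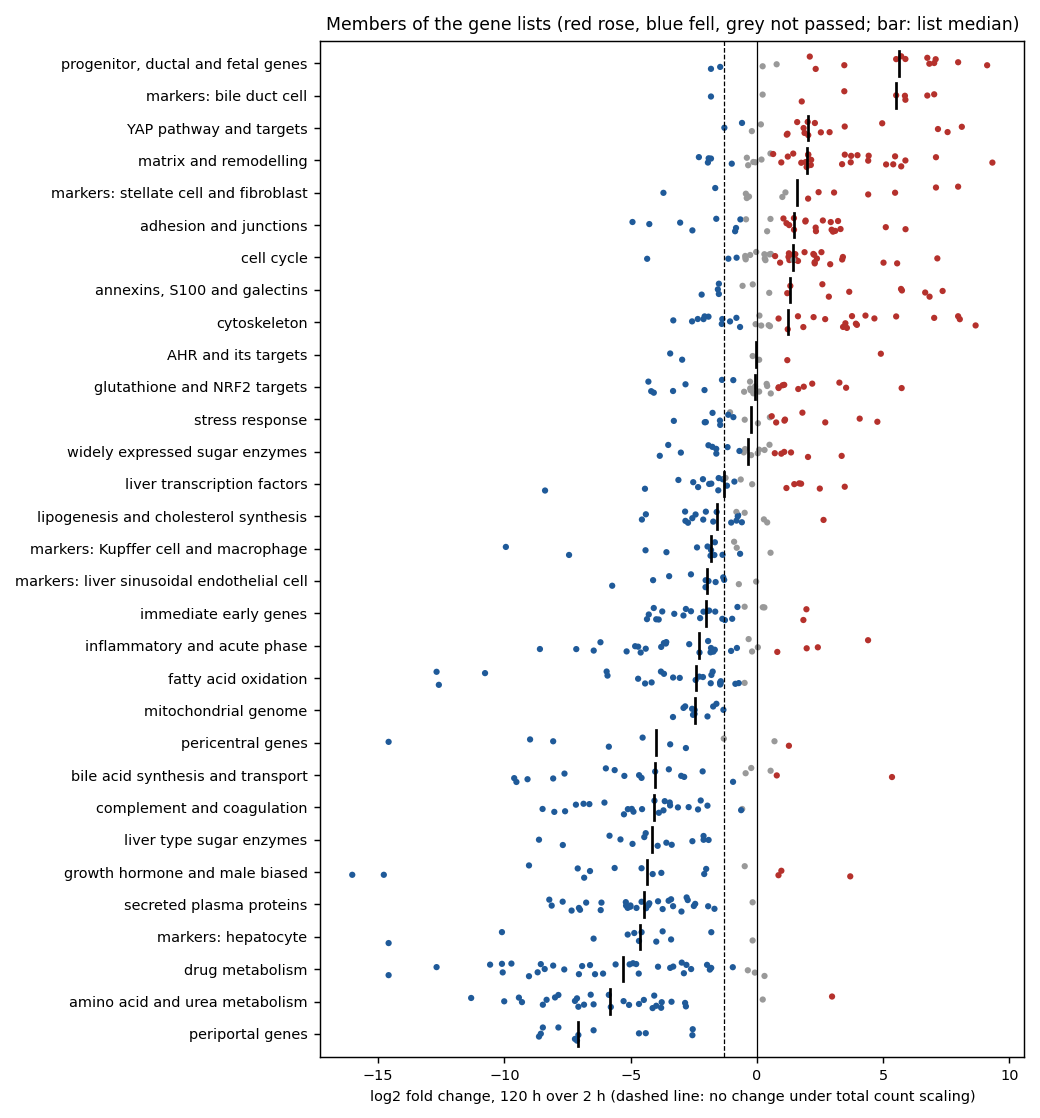
Log2 fold change at 120 h over 2 h of each tested member of the gene lists, with TMM scaling, red where the gene rose, blue where it fell and grey where it did not pass; the black bar is the list's median and the dashed line marks no change under scaling by total counts. Periportal genes have the lowest median (-7.10) and progenitor, ductal and fetal genes the highest (5.62) with TMM; medians between the lines, as for AHR, glutathione and NRF2, stress and widely expressed sugar genes, change sign with total counts.

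Cell cycle genes rose in 23 of 37 cases and fell in 3 (34 and 1 with total counts; medians 1.43 and 2.75), at low levels. *Mki67*, the proliferation marker, was at 0 to 1.28 CPM at 2 h and 0.839 to 13.3 CPM at 120 h, with overlapping groups (3.38, SE 0.68), and *Top2a*, the mitotic topoisomerase, at 0 to 0.628 CPM and 1.28 to 12.4 CPM. The D cyclins, which open G1, rose more in level, *Ccnd1* from a median of 8.68 to 48.4 CPM (2.56, SE 0.32) and *Ccnd2* from 0.995 to 35.6 CPM (5.02, SE 0.40). Against this, *Rrm2*, a subunit of ribonucleotide reductase, fell from 180.4 to 8.05 CPM (-4.35, SE 0.25), and the cycle inhibitor *Cdkn1a* from 683.1 to 296.0 CPM (-1.13, SE 0.15), which did not pass with total counts (0.18).

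Immediate early genes, which answer cell isolation and plating within minutes, were high at 2 h. Of 24 immediate early genes 19 fell and 2 rose (13 and 5 with total counts; medians -2.03 and -0.73). *Fos* was at 33.7 to 157.8 CPM at 2 h and 1.90 to 6.22 CPM at 120 h (-4.09, SE 0.34), *Egr1* fell from a median of 409.5 to 42.5 CPM (-3.27, SE 0.24) and *Atf3* from 466.8 to 34.1 CPM (-3.75, SE 0.20). *Klf4* was 1 of the 2 that rose (1.96, SE 0.40). Acute phase and inflammatory genes fell in 22 of 29 cases and rose in 4 (15 and 7 with total counts; medians -2.28 and -0.91). The serum amyloid *Saa1* went from a median of 1332 to 6.54 CPM, *Hamp*, the iron hormone hepcidin, from 595.3 to 5.32 CPM (-6.46, SE 0.67), and *Hp*, haptoglobin, from 9216 to 1065 CPM (-2.68, SE 0.37). The chemokine *Ccl2* rose from 5.84 to 134.1 CPM (4.40, SE 0.38) and the copper carrier *Cp*, ceruloplasmin, from 290.8 to 1464 CPM (2.41, SE 0.29).

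Targets of NRF2, the sensor of oxidative stress, and glutathione genes were higher in 10 of 29 cases and lower in 8 (20 and 6 with total counts; medians -0.08 and 1.23), shares near those of all genes tested (38.1% and 28.1%) and so no result about the list. *Hmox1*, heme oxygenase, fell from a median of 2889 to 180.6 CPM (-4.09, SE 0.19), the sulfiredoxin *Srxn1* from 3780 to 399.4 CPM (-3.32, SE 0.19) and the metallothionein *Mt1* from 6679 to 349.8 CPM (-4.30, SE 0.24). *Gclc*, the catalytic subunit of glutathione synthesis, rose from 765.2 to 1472 CPM (1.02, SE 0.19), and *Gpx3*, the secreted glutathione peroxidase, from 2.01 to 81.1 CPM (5.73, SE 0.43). *Nqo1*, the reference NRF2 target, did not pass (0.09, SE 0.23, and 1.39 with total counts). Among 20 other stress genes 8 rose and 8 fell (11 and 2 with total counts; medians -0.22 and 1.09). Beside the shares of all genes tested (69.8% and 10.9% with total counts), these counts too are no result about the list. The p53 targets *Phlda3* and *Ccng1* rose from 1.99 to 50.3 CPM and from 14.6 to 242.2 CPM (4.77 and 4.07), and *Atf4*, the factor of the integrated stress response, fell from 516.9 to 185.4 CPM (-1.45, SE 0.13), which did not pass with total counts (-0.14).

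*Cyp1a1*, the classical AHR target, rose in the absence of TCDD. The 2 h libraries were at 0.897 to 5.79 CPM (median 1.44) and the 120 h libraries at 7.20 to 252.7 CPM (median 51.1), a log2 fold change of 4.91 (SE 0.57, adjusted p = 4.33e-07). Every 120 h library was above every 2 h library. At other times 2 vehicle libraries stood far higher, the one labelled WT, 48 h, replicate 1, at 3203 CPM and the one labelled WT, 96 h, replicate 3, at 1617 CPM. *Ahr* rose as well, from a median of 16.3 to 41.2 CPM with overlapping groups (1.20, SE 0.19), while *Tiparp*, an AHR target that limits the receptor, fell from 40.9 to 5.84 CPM (-2.96, SE 0.35) and *Cyp1a2* fell as given above. Of the 8 genes of the AHR list *Ahrr* and *Cyp1b1* were too low to be tested, and 2 of the other 6 rose and 2 fell (4 and 2 with total counts; medians -0.04 and 1.27). So few genes give no result about the list.

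All 11 mitochondrial genes tested fell with TMM (median -2.47), and 8 with total counts (median -1.16). *mt-Co1*, a subunit of cytochrome oxidase, went from 33090 to 46980 CPM to 5163 to 9200 CPM (-2.47, SE 0.18). Nuclear copies of mitochondrial sequence can take unique reads from some of these genes, so differences among them are uncertain.

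Of 15 Kupffer cell and macrophage markers 12 fell and none rose (4 and 2 with total counts), and their sum went from 314.0 to 708.0 CPM to 59.8 to 370.9 CPM. As a share of gene counts they overlapped, at 0.021% to 0.0405% (median 0.0253%) at 2 h and 0.00787% to 0.0496% (median 0.0216%) at 120 h. *Timd4*, found on resident Kupffer cells, was at 5.98 to 16.3 CPM at 2 h and left 1 count over all 120 h libraries (2403-fold lower, 95% counting interval 431.2 to 94900), and *Clec4f* went from a median of 75.5 to 0.170 CPM (-7.44, SE 0.61), whereas *Lyz2*, a general macrophage gene, was at a median of 34.4 and 55.6 CPM and did not pass. Of 12 sinusoidal endothelial markers 10 fell and none rose (7 and 1 with total counts), summing to 435.5 to 728.3 CPM and then 80.9 to 203.7 CPM. As a share of gene counts they held 0.0241% to 0.0417% at 2 h and 0.011% to 0.0272% at 120 h, with overlap. *Lyve1* fell from a median of 64.1 to 3.76 CPM (-4.11, SE 0.36) and *Stab2* from 45.1 to 13.9 CPM (-2.04, SE 0.20). Lymphocyte and blood cell markers summed to at most 4.21 CPM at 2 h and 1.43 CPM at 120 h, 3 of the 12 had no count at 2 h and 7 none at 120 h, and the only one tested, *Ptprc*, did not pass with TMM (0.97) and rose with total counts (2.21).

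Of the 15 genes with the largest rises at a mean of 10 CPM or more, 3 were in the lists (*Lox*, *Cdh6* and *Tubb2b*). Some had no count in any 2 h library, and against a floor of 3 counts per library *Nrk*, a kinase known from placenta and embryo, was at least 153.7-fold higher (median 38.8 CPM at 120 h), the fibroblast growth factor homologue *Fgf13* at least 138.3-fold, *Arhgef28*, a guanine nucleotide exchange factor, at least 86.6-fold, and the kinase *Pak3* at least 75.8-fold. The sodium channel *Scn7a* also had no count at 2 h and had a median of 12.8 CPM at 120 h. *Ptgfr*, the prostaglandin F receptor, and *Pkia*, an inhibitor of protein kinase A, each had 1 count at 2 h and were 2908-fold (95% counting interval 521.8 to 114800) and 1927-fold (345.8 to 76110) higher. *Cdh6*, a cadherin of developing kidney and liver, and *Syt14* each had 2, and were 690.7-fold (191.2 to 5703) and 539.5-fold (149.3 to 4455) higher. *Bicc1*, an RNA-binding protein, was the most abundant, at 0 to 1.31 CPM and then 257.6 to 397.2 CPM (9.34, SE 0.40, adjusted p = 8.47e-13). *Fgfbp1*, *Serpinb9b* and *Shc2* reached medians of 61.1, 45.7 and 47.6 CPM from a median of 0.

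By absolute level, the largest gains after *Clu* and *Fn1* were in *Anxa5*, *Vim*, *Flna*, *Cp*, *Aldh1a1*, *Malat1*, *Gclc* and *Tmem176b*. *Malat1*, a nuclear non-coding RNA, varied widely, from 46.3 to 350.8 CPM at 2 h and 405.7 to 2121 CPM at 120 h (2.89, SE 0.40), in libraries whose share of pairs on no gene had also risen (4.72% to 9.38%). With that share as a covariate its log2 fold change was 0.64 and it did not pass (adjusted p = 0.638). *Aldh1a1* rose from a median of 885.7 to 1988 CPM (1.27, SE 0.17) and *Tmem176b*, a membrane protein, from 236.6 to 985.7 CPM (2.14, SE 0.20).

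The same covariate, which itself separated the times, ended the calls of other genes named here. Over all genes tested, the DEGs went from 10002 to 4087 with this covariate. Among the genes named singly here, which include those with the largest changes, 162 calls were examined. Of these 22 ended, and 1 call was gained, that of *Apob*, which fell by 2.51 on the log2 scale (adjusted p = 0.004997). Among genes that had risen, the log2 fold change was then 0.93 for *Cp*, 0.099 for *Gclc*, 0.14 for *Ahr*, 0.92 for *Foxa1*, -0.10 for *Mki67*, 1.04 for *Aldh1a1*, 1.82 for *Onecut2*, 3.70 for *Top2a*, 1.90 for *Hk2*, 2.47 for *Klf4* and 2.63 for *Lrat*, and none of them passed. Among genes that had fallen, it was -1.04 for *Trf* (transferrin), -0.065 for *Pklr*, -2.0 for *Scd1*, -1.39 for *Hp*, -0.36 for *Cdkn1a*, -0.85 for *S100a10*, -0.93 for *Ccn1*, -0.77 for *Yap1*, -0.56 for *Masp1* and -2.67 for *Epcam*, and these did not pass either.

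The 120 h cultures differed among themselves. Of the 32 secreted plasma proteins, 20 were highest in the library labelled WT, replicate 2, and 10 in the one labelled PkmΔDRE, replicate 1. Over the 4245 genes that fell, these 2 libraries were highest in 24.2% and 24.4%, and the one labelled PkmΔDRE, replicate 4, in 23.3%. The plasma proteins summed to 53630 CPM in the library labelled WT, replicate 2, against 17790 to 35970 CPM in the other 7. In this library *Alb* was at 12050 CPM, against 1798 to 6771 CPM, and *Afp* at 754.0 CPM, against 62.01 to 284.7 CPM. The adult and the fetal gene were thus both highest there. *Cyp2e1* in this library was at 0.638 CPM, within the range of the others. The library labelled WT, replicate 3, stood at the other end, with the lowest *Alb* and *Serpina3k* (17.4 CPM) and the highest *Cd44* (177.5 CPM). Leaving out any 1 of the 16 libraries gave between 9886 and 10311 DEGs.

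The change with time was also fitted within each genotype label, with 4 libraries a group. Fitted apart, with no library in common, 8425 of 13784 genes were DEGs in libraries labelled WT and 8249 of 13497 in those labelled PkmΔDRE. The 7088 DEGs that both fits called made up 84.1% of the first list and 85.9% of the second, and 7087 of them had the same direction. The difference itself, tested as an interaction of label and time, was called for 0 of 15109 genes with edgeR (793 genes, 5.25%, at an unadjusted p under 0.05, and a smallest adjusted p of 0.768). DESeq2 called 2, *Ccdc154* and *9630013K17Rik*, named here after their values were seen. A miss of the threshold does not show that the labels respond alike.

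**Figure D4:**
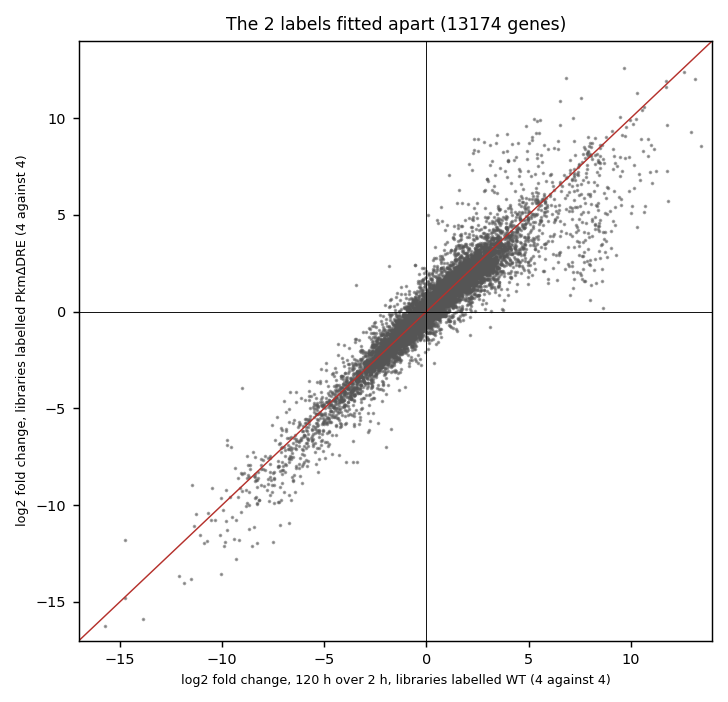
Log2 fold change at 120 h over 2 h in libraries labelled WT (x axis) and PkmΔDRE (y axis), each from its own fit of 4 against 4 libraries, for the 13174 genes tested in both; the red line marks equal change. Points lie along the line from about the strongest falls to the strongest rises, and spread most among genes with large rises, which were near 0 at 2 h.

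The 56 vehicle libraries of the times in between show when the changes came. In 2 of the 72 vehicle libraries the profile went against the time label. The library labelled PkmΔDRE, 4 h, replicate 4, had *Alb* at 7849, *Cyp2e1* at 0.107 and *Vim* at 2180 CPM, and the one labelled PkmΔDRE, 96 h, replicate 4, had them at 73650, 2684 and 16.1 CPM. They were not reassigned. On an axis from the mean of the 2 h libraries (0) to that of the 120 h libraries (1), they stood at 0.903 and 0.175, against -0.0415 to 0.158 in the other 7 libraries at 4 h and 0.874 to 0.960 in the other 7 at 96 h. The median position went from 0.00888 at 2 h to 0.118 at 4 h without that library (0.122 with it), then to 0.266 (8 h), 0.395 (12 h), 0.606 (24 h), 0.726 (48 h) and 0.858 (72 h). It was 0.935 among the 96 h libraries without the discordant one (0.914 with it) and 1.01 among those of 120 h. The 8 libraries of 120 h still spread from 0.914 to 1.08.

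Different groups kept different times. The immediate early genes had a median log2 change from 2 h of -1.58 at 8 h and -2.17 at 24 h, after which they stayed near -2 (-1.99 at 120 h). *Fos* had a median of 63.4 CPM at 2 h, 5.41 at 8 h and 4.10 at 120 h. As a list, the secreted plasma proteins were lower at each later time, with median changes of -0.92 (8 h), -2.41 (24 h), -3.50 (48 h) and -4.54 (120 h). Drug metabolism genes were lowest at 72 h, with -3.06 (24 h), -5.70 (72 h), -5.31 (96 h, without the discordant library) and -5.35 (120 h). *Cyp2e1* fell in each step, from 5177 CPM (2 h) to 1144 (12 h), 281.9 (24 h), 28.6 (48 h) and 1.36 (72 h). Bile duct marker genes were lower at 12 h (-0.69) and higher at 24 h (1.62) and 72 h (5.12), and progenitor genes rose only from 24 h (0.28) to 120 h (3.26). *Vim* reached 713.1 CPM at 24 h and 1353 at 48 h, and *Sox4* rose later, from 37.8 CPM at 24 h to 323.1 at 72 h and 708.9 at 120 h.

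Some genes that are called higher at 120 h had already passed their peak. *Mki67* had a median of 19.99 CPM at 48 h, 9.88 at 96 h (7.69 with the library whose profile goes against its label) and 3.58 at 120 h, and the cell cycle list as a whole a median change of 2.62 at 48 h and 1.29 at 120 h. *Krt19* was at 146.6 CPM at 72 h and 36.5 at 120 h, *Lgals1* at 861.9 CPM at 48 h and 418.4 at 120 h, *Clu* at 22640 CPM at 72 h and 12460 at 120 h, and *Pkm* at 50.8 CPM at 12 h, 418.8 at 72 h and 183.4 at 120 h. *Apob*, by contrast, stayed between medians of 518.0 and 815.0 CPM at all 9 times without the 2 libraries. The genes that had fallen by 48 h did not all stay down, and *Tat* rose from 14.4 CPM at 48 h to 146.0 at 120 h, *Cps1* from 73.4 to 202.9 CPM and *Slc2a2*, the liver glucose transporter, from 14.8 to 54.97 CPM. No test was run across the times in between.

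**Figure D5:**
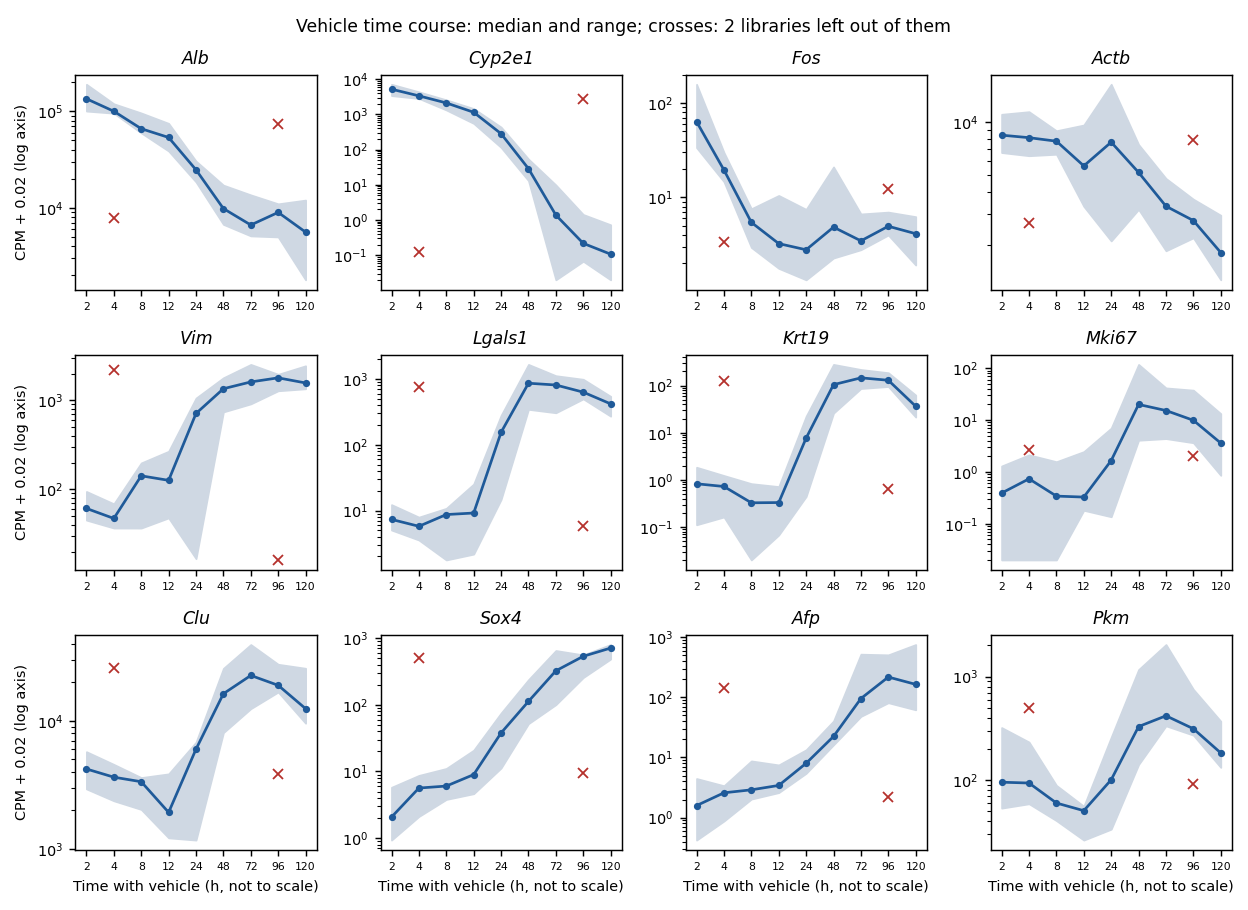
CPM plus 0.02 (log axis) of 12 genes over the 9 times of the vehicle course, with the line at the median, the band from lowest to highest library (8 libraries per time, 7 at 4 h and 96 h) and red crosses for the 2 libraries whose profile goes against their time label. *Cyp2e1* falls at each step, *Alb* falls to 72 h and has medians of 8986 CPM at 96 h and 5611 at 120 h, *Fos* is down by 8 h, *Mki67*, *Krt19*, *Lgals1*, *Clu* and *Pkm* have their highest median before 120 h, and *Sox4* has it at 120 h.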

How the data were processed

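RNA of primary mouse hepatocytes was extracted with TRIzol, made into libraries with an Illumina TruSeq kit and sequenced as unstranded read pairs on an Illumina NovaSeq. According to the methods and the submitters' processing notes, the authors checked reads with FastQC (version 0.11.3 in the notes), trimmed them with Trimmomatic 0.39 and aligned them with STAR 2.7 to GRCm39 (the annotation release is in the methods). The deposited files hold raw counts per gene, 1 file per library, not normalized. The count made without regard to strand was taken, so overlapping and antisense genes cannot be told apart. TCDD libraries were used only for *Pkm*, to check the genotype labels (two-sided exact permutation tests, chosen after seeing the data). The 4 lines that name no gene held 21.2% to 30.3% of pairs and were left out. Of 55359 genes, 52083 had a symbol in the GENCODE M21 annotation (GRCm38), matched by identifier.

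Samples were grouped by time and genotype label, 4 libraries each. Genes were kept by filterByExpr (count minimum 10, total minimum 15), counts were scaled with TMM, and 120 h was compared with 2 h, with label as covariate, by the robust quasi-likelihood test of edgeR 4.0.16 (R 4.3.3) with Benjamini-Hochberg adjustment over all genes tested; adjusted p-values in the text come from it unless DESeq2 is named. SE is the log2 fold change divided by the square root of F. The fits were tested on simulated data. Printed CPM use TMM factors of all 72 vehicle libraries. Library measures were compared by two-sided exact permutation tests (SciPy). The position of a library is its projection on the difference of the mean log2(CPM + 0.5) of the 120 h and 2 h libraries, and list changes over time use the same pseudocount. Intervals and floors (3 counts) cover counting error only. Alternatives were RLE and total count scaling, DESeq2 1.42.0, no filter, a fit of all vehicle libraries, the no-gene share of each library as a covariate, no label covariate, each label alone and leaving out each library.

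The members and lists were chosen with earlier results of these data known, so no list is independent evidence. Genes named were list members, the 15 with the largest change in each direction whose groups did not overlap and whose higher mean was at least 10 CPM, and the 10 DEGs with the largest gain and the 10 with the largest loss of mean CPM, without predicted genes and clones. Promoter windows came from RefSeq (GRCm38.p6); 10997 symbols of tested genes had at least 1.
Some genes are not reported here.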

Additional observations from a re-analysis of the deposited data

Results flagged for a closer look

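Of 304 groups of 8 libraries examined, 46 held 1 library far from the other 7 for a named gene, where chance gives about 5%. The flags gathered in a few libraries, and genes that move together are not independent flags.

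The library labelled WT, 120 h, replicate 2, was far above the others for secreted and coagulation genes, in CPM *Trf* 15750, *Apoa1* 1703, *Apoa2* 142.7, *Fgg* 185.9, *C8b* 10.12, *F10* 30.45, *Serpina3k* 762.0, *Saa1* 65.77, *Saa2* 35.43 and *Afp* 754.0. It was also far above for metabolic genes, in CPM *Cyp2f2* 31.25, *Cyp2c29* 16.74, *Abcb11* 3.866, *Fbp1* 33.76, *Pklr* 165.5, *Pygl* 123.8 and *Scd1* 4664, and for *Gjb2* (49.19) and *Cyp1a1* (252.7).

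The library labelled PkmΔDRE, 120 h, replicate 1, was far above for *Apoe* (6605 CPM), *Cebpa* (186.7), *Foxa3* (28.81), *Col1a1* (121.6) and *Col18a1* (663.3), and replicate 4 of that group for *Vim* (2449 CPM). Among the libraries labelled WT, 120 h, replicate 3 was far above for *Hk2* (30.44 CPM), *Fabp1* (1.387), *Cd44* (177.5), *Ccnd1* (119.9) and *Ccl2* (438.3), and replicate 4 held the only count of *Timd4* (0.02861 CPM).

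At 2 h the library labelled WT, replicate 3, was far above for *Otc* (565.0 CPM), *Slc2a2* (486.3), *Foxa1* (27.29), *Cdh2* (53.57), *Ahr* (31.96) and *Lyve1* (140.7), and replicate 2 for *Afp* (4.443). Of those labelled PkmΔDRE, replicate 1 was far above for *Pkm* (322.2 CPM) and *Tuba1a* (3.434) and far below for *Yap1* (87.9), replicate 2 far above for *Lox* (0.4782) and *Ccn2* (187.4), replicate 3 for *Krt7* (0.687) and *Ccn1* (897.8), and replicate 4 for *Fos* (157.8).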

How the results depend on the processing

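No paired analysis was possible because the labels carry no replicate number that ties libraries across times. The 10002 DEGs became 4087 with the no-gene share of each library as a covariate, a share that itself separated the times, and the 4598 genes changed at least 4-fold became 2340 there, 6928 with total count scaling and 7159 with no filter on low counts. Leaving out each library gave 9886 to 10311 DEGs and 4627 to 5067 genes changed at least 4-fold. The interaction of label and time, at 0 genes, was 2 with DESeq2 and 0 to 0 on leaving out each library. With total counts the log2 fold change turned to 1.10 for *Apob*, 0.68 for *Masp1*, 1.20 for *Cyp2a5*, 0.84 for *Aldoa*, 0.84 for *Cpt1a*, 0.017 for *Ccn1*, 0.71 for *Yap1* and 0.18 for *Cdkn1a*, as the shift of 1.30 between the scalings fixes. With the no-gene share it turned to 0.41 for *Cyp2a5*, -1.06 for *Abcc2*, 0.50 for *Aldoa* and -0.10 for *Mki67*, and it ended 22 of 162 calls of single genes; the cause was not tested. *Cyp2a5* was at 0.00047 without the label covariate, 0.23 in label WT alone and -0.25 to 0.088 on leaving out each library, and *Nqo1* at -0.37 in label PkmΔDRE alone and -0.0073 to 0.22 on leaving out each library. Between them the 120 h and 2 h libraries differed, on leaving out each library, by 4.318 to 4.884 (percent on no gene), -6.361 to -5.436 (percent unmapped), -2.542 to -2.298 (percent mitochondrial), -12.99 to -12.46 (percent in the top 10) and 4832 to 5542 genes detected. A fit of all vehicle libraries without the 2 discordant ones, chosen after seeing the data, gave 10821 DEGs.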

Other observations

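A gene without a symbol in the table used here (ENSMUSG00000119584) held 1.71% to 3.12% of gene counts at 2 h and 1.70% to 3.55% at 120 h, and had the highest count of all genes in 5 of the 8 libraries at 120 h.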
